A study of Drosophila melanogaster with 4 samples.

Results

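Of the 9877 H3K9acS10P clusters that the authors listed for both ChIP replicates of *Drosophila melanogaster* larvae together, 487 lay on the 6 mapped heterochromatin scaffolds. A cluster is a region of significant enrichment in the deposited lists. The 487 were chosen by sequence alone, as every enriched region on 2LHet, 2RHet, 3LHet, 3RHet, XHet or YHet. They numbered 197 on 3RHet, 135 on 3LHet, 124 on 2RHet, 11 each on XHet and YHet, and 9 on 2LHet. Unplaced sequence (U and Uextra) was left out.

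The animals were wild-type Oregon-R larvae at the third instar. Chromatin of fixed nuclei was precipitated with an antibody from an Abcam lot against H3K9acS10P in 2 ChIP samples, and each had its own input as background. No other genotype, stage or treatment was included, so the only groups are ChIP and input. The labels name no tissue and give neither the sex of the larvae nor whether the replicates were separate collections, so the spread between replicates may be technical. Per the labels' protocols, larvae were taken from bottles and their tissues homogenised, so a region marked weakly in all nuclei cannot be told apart from one marked strongly in few. Without gene values, no tissue could be checked against its marker genes.

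Histone H3 has lysine 9 and serine 10 side by side. Acetylated lysine 9 is typical of active promoters, whereas methylated lysine 9 is the binding site of HP1 and is typical of heterochromatin, and the same lysine cannot carry both. In flies, serine 10 is phosphorylated in interphase by the kinase JIL-1, whose loss lets heterochromatic marks spread, and in mitosis by Aurora B. Fly heterochromatin around the centromeres is dense in satellite repeats and transposon remnants. It also holds active genes that depend on this setting, such as *light* and *rolled*, and the Y carries genes needed for male fertility. The 6 scaffolds are heterochromatin sequence that was assembled and assigned to a chromosome in FlyBase release 5, the build given in the file headers. They need not be all of it. Arms 2L, 2R, 3L, 3R and X were taken whole here, with their ends nearest the centromere. Their lengths run from 0.204 Mb (XHet) through 0.347 Mb (YHet), 0.369 Mb (2LHet), 2.52 Mb (3RHet) and 2.56 Mb (3LHet) to 3.29 Mb (2RHet). No genome or gene annotation on that release was used here, so regions are given by position and neither genes nor bases are printed.

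The comparison rests on 3 lists: 1 for each replicate and the combined list, named in its file as a replicate set. The combined list was made from the same 2 ChIP samples, so its overlap with either replicate is not independent of it. The scaffolds held 92 clusters in replicate 1 and 231 in replicate 2. How the lists were called and how reads from repeats were placed is not stated in the labels or file headers. Read depth is unknown for every library. Clusters of 1 list are not replicates of a condition, and 2 replicates of 1 group allow no test. Differences between the scaffolds and the rest of the genome are therefore values set side by side, and the 95% Wilson intervals cover counting of clusters only.

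The scaffolds were thinly and unevenly covered by clusters, with 3RHet highest in the combined list and XHet highest in both replicates. Coverage is taken over the full sequence length, and assembly gaps and repeats within it were not checked. Replicate 1 had 2.11% of their summed length inside clusters and replicate 2 had 5.33% (mean 3.72% ± 2.28, SD, n = 2), against 9.85% in the combined list. The 5 large arms (2L, 2R, 3L, 3R and X) gave 14.9% and 17.4% in the replicates and 22.1% in the combined list. Scaffold coverage was thus 14.2% and 30.7% of arm coverage in replicates 1 and 2 and 44.5% of it in the combined list, and in both replicates every scaffold lay below every large arm. Chromosome 4, a small chromosome rich in HP1, lay between the 2 sets at 10.5% and 8.83% in the replicates. In replicate 2 this was close to XHet at 8.73%. In the combined list chromosome 4 stood at 12.1%, above the scaffolds together but below 3RHet at 15.3%.

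Coverage of 3RHet was 2.54% in replicate 1 and 8.57% in replicate 2, and it reached 15.3% in the combined list. XHet was covered at 5.27%, 8.73% and 10.3%, just above 3RHet in replicate 2. 3LHet stood at 2.30%, 4.91% and 9.48%. Replicate 2 was above replicate 1 on all 6 scaffolds.
The remaining scaffolds were lower in the combined list. 2RHet, the longest, was covered at 1.50%, 3.22% and 6.88%. YHet gave 1.21%, 4.07% and 5.53%, and 2LHet gave 2.32%, 4.14% and 5.48%. The order of the scaffolds by replicate means was XHet at 7.00% ± 2.44, 3RHet at 5.55% ± 4.26, 3LHet at 3.60% ± 1.84, 2LHet at 3.23% ± 1.28, YHet at 2.64% ± 2.02 and 2RHet at 2.36% ± 1.22 (SD, n = 2 each). Each neighbouring pair in this order differed by less than the larger of its 2 SDs. These SDs hold the step from replicate 1 to replicate 2, which went upward on every scaffold. Within each replicate XHet lay above 3RHet, 3RHet above 3LHet and 2LHet above YHet. The order of 3LHet and 2LHet, and that of YHet and 2RHet, switched between replicates.

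**Figure D1:**
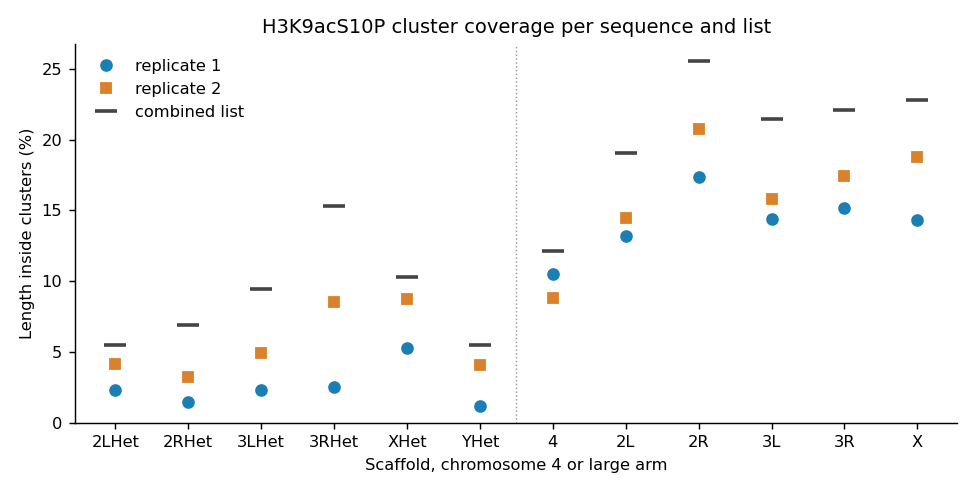
Percentage of each sequence's length inside clusters (vertical axis) for the 6 heterochromatin scaffolds, chromosome 4 and the 5 large arms (horizontal axis), with circles for replicate 1, squares for replicate 2 and bars for the combined list. On every scaffold replicate 2 lies above replicate 1 and the combined list above both, and on 3RHet the 3 values spread from 2.54% to 15.3%.

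The gap between the lists was wider on the scaffolds than on the arms. Replicate 2 had 2.51 times as many scaffold clusters as replicate 1, with 1.75 times on XHet, 2.00 on 2LHet, 2.26 on 2RHet, 2.48 on 3LHet, 2.77 on 3RHet and 3.50 on YHet, whereas on the large arms it had 1.16 times as many. The combined list had 2.11 times as many scaffold clusters as replicate 2, against 1.30 times on the arms. The part of sequencing depth in these ratios was not tested, since depth is unknown.

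Clusters on the scaffolds were short. In the combined list their median width was 1615 bp (quartiles 1174 and 2340 bp), against 2295 bp (1514 and 3589 bp) on the large arms. In replicate 1 the medians were 2045 and 2491 bp, and in replicate 2 they were 1932 and 2380 bp, so scaffold clusters were the shorter in each list. Chromosome 4 lay between, at 2261 bp (combined), 2340 bp (replicate 1) and 2172 bp (replicate 2). A median width below the arms was thus not particular to the scaffolds. The shortest cluster of the replicate lists was 1301 bp, and 168 of the 487 combined scaffold clusters (34.5%) were narrower than that, against 17.6% on the arms. Clusters of at least 5 kb numbered 6 of 487 (1.23%) on the scaffolds, 4 on 3RHet and 2 on 3LHet. The share was 12.8% on the arms and 4.48% on chromosome 4. By scaffold, the median width was 2671 bp on 2LHet, 1737 bp on YHet, 1701 bp on 3RHet, 1614 bp on 2RHet, 1511 bp on 3LHet and 1483 bp on XHet.

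Scores on the scaffolds did not follow width in the combined list. The score is the authors' own value per region and its scale is not named, so it is used here to rank clusters within 1 list. Its Spearman correlation with width across the 487 clusters was 0.06, against 0.66 across the 8834 arm clusters. In the replicate lists the scaffold values were 0.55 over 92 clusters (replicate 1) and 0.30 over 231 (replicate 2), against 0.70 and 0.75 on the arms. The points share libraries and are not independent, so these are descriptions. The median score of scaffold clusters was 0.54 in the combined list, above the arm median of 0.43, although they were narrower, and 275 of them (56.5%) fell in the third quartile of the whole list's scores. In the replicate lists the scaffold medians were 0.80 and 0.78, against 0.74 and 0.65 on the arms. Chromosome 4 had a median score of 0.66 in the combined list, 0.96 in replicate 1 and 0.59 in replicate 2. In the combined list and replicate 1, a median above the arms was thus not particular to the scaffolds. YHet had the highest median score of the 6 scaffolds in the combined list, 1.10, and the other 5 ranged from 0.50 (3LHet) to 0.65 (2LHet).

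Of the 487 clusters, 60 (12.3%, interval 9.69 to 15.5) were also listed by both replicates, where a cluster is met if at least 1 bp overlaps. Over all 9877 combined clusters this share was 48.8%. A further 164 (33.7%) were met by replicate 2 only and 30 (6.16%) by replicate 1 only, against 16.9% and 7.94% over the whole list. The largest class, 233 clusters (47.8%, interval 43.4 to 52.3), was met by neither replicate, against 26.3% over the whole list. On the large arms 53.1% were met by both, 15.3% by replicate 2 only, 8.14% by replicate 1 only and 23.5% by neither. Replicate 2 alone met 5.47 times as many scaffold clusters as replicate 1 alone, and on the arms the ratio was 1.88. Without replicate 1, that is with replicate 2 as the only requirement, 224 clusters (46.0%) were met, and without replicate 2 the number was 90 (18.5%).

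The share met by both differed among the scaffolds, with few clusters on 3 of them. On XHet it was 4 of 11 (interval 15.2 to 64.6%), on 2LHet 3 of 9 (12.1 to 64.6%) and on YHet 2 of 11 (5.14 to 47.7%). On the long scaffolds it was 18 of 135 on 3LHet (13.3%), 13 of 124 on 2RHet (10.5%) and 20 of 197 on 3RHet (10.2%). All clusters met by replicate 1 on 2LHet, XHet and YHet were also met by replicate 2. Those 3 scaffolds held no cluster met by replicate 1 only, out of 9, 11 and 11, which allows shares of up to 29.9%, 25.9% and 25.9%.

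**Figure D2:**
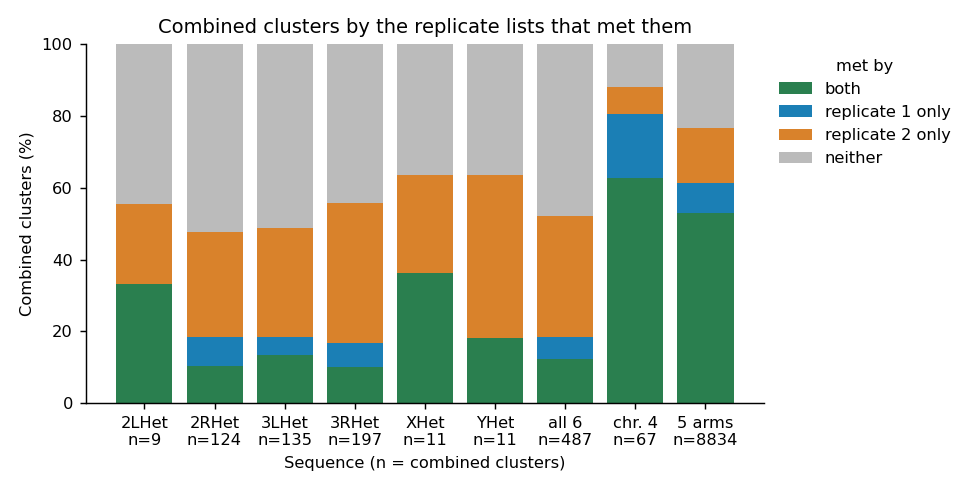
Percentage of combined clusters (vertical axis) met by both replicate lists, by replicate 1 only, by replicate 2 only or by neither, for each scaffold, all 6 together, chromosome 4 and the 5 large arms, with the number of clusters under each bar. The share met by both is 12.3% on the scaffolds together, 62.7% on chromosome 4 and 53.1% on the arms.

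Narrow clusters were seldom shared. None of the 168 combined scaffold clusters under 1301 bp was met by both, and 3 of 1555 were on the arms. In each class of greater width the scaffold share also lay below the arm share. From 1301 to 1999 bp the shares were 2 of 158 (1.27%, interval 0.348 to 4.50) on the scaffolds and 9.53% on the arms. From 2000 to 2999 bp they were 34 of 111 (30.6%, interval 22.8 to 39.7) and 76.1%. At 3000 bp or more they were 24 of 50 (48.0%, interval 34.8 to 61.5) and 92.5%. None of those 50 was met by neither replicate, which allows a share of up to 7.13% by the same interval.

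Within the same range of scores, too, the scaffold shares were lower. In the quartile of highest scores of the whole combined list, 28 of 89 scaffold clusters (31.5%, interval 22.8 to 41.7) were met by both, against 98.2% of 2094 arm clusters. In the quartile below it the shares were 10.5% of 275 and 88.6% of 1993. Median widths in these quartiles were 1731 and 1711 bp on the scaffolds and 3760 and 3043 bp on the arms, so the scaffold clusters were also narrower than arm clusters of like score.

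The edges of most shared regions lay near each other in the replicates, but some were far apart. Of the 60 clusters met by both, 59 met exactly 1 cluster in each replicate. In 56 of these the replicate clusters overlapped each other, and their starts differed by a median of 212 bp and their ends by 170 bp, against 155 and 148 bp on the arms. The bases shared by the pair were a median 85.9% of their union, against 86.4% on the arms, and ranged from 11.7% to 97.6%. Replicate scores of these 56 pairs had a Spearman correlation of 0.67, against 0.84 over 3916 arm pairs. In the other 3 of the 59, picked out here for this pattern, each replicate listed a different piece of 1 combined cluster. On the arms this was so for 24 of 3940. One lay on 2RHet (2240768 to 2244612) and the others on 3RHet (547076 to 552898 and 1042482 to 1045848). In the first, replicate 1 listed the stretch from 2240932 to 2242249 and replicate 2 that from 2242378 to 2244204.

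Counted from the replicate lists, 59 of 92 replicate 1 clusters on the scaffolds (64.1%, interval 53.9 to 73.2) met replicate 2, against 85.9% over all replicate 1 clusters. In the other direction 57 of 231 replicate 2 clusters (24.7%, interval 19.6 to 30.6) met replicate 1, against 71.4% over all of that list. In bases, the replicates shared 120 kb of scaffold sequence. This is 61.6% of the bases in replicate 1 clusters and 24.4% of those in replicate 2 clusters, against 84.0% and 71.9% on the large arms. The shared share of the union was 21.2% on the scaffolds together and 63.3% on the arms. By scaffold it was 57.0% on XHet, 51.6% on 2LHet, 29.7% on YHet, 24.0% on 3LHet, 19.9% on 2RHet and 15.0% on 3RHet. 3RHet, last by this measure, had the most shared sequence in kb (36.5), and as a share of replicate 1 bases it stood at 57.1%, above 2RHet at 52.3%.

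All 92 replicate 1 clusters on the scaffolds met the combined list, against 99.5% over the genome, and 217 of 231 replicate 2 clusters did (93.9%), against 94.3%. Replicate 1 clusters met by replicate 2 had a median width of 2427 bp and those not met 1601 bp. In replicate 2 these medians were 2401 and 1739 bp. The highest-scoring replicate 1 clusters that replicate 2 did not list were on 3LHet from 1882669 to 1884661 (score 1.86) and on 3RHet from 1004834 to 1006535 (score 1.60). In replicate 2 those without a partner in replicate 1 were both on 2RHet, from 1995925 to 1997584 (score 3.46) and from 650414 to 651832 (score 3.00). The last of these was missing from the combined list too.

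The 60 clusters met by both fell into high-scoring regions, often standing alone, and lower-scoring ones set among neighbours. The 25 with a combined score of at least 1 had a median width of 2695 bp, and 13 of them (52.0%) had no other cluster within 10 kb. The 35 with a score under 1 had a median width of 3201 bp, and 4 of them (11.4%) stood alone. Over all 487 scaffold clusters, 91 stood alone. Of the 17 lone clusters met by both, 7 were on 2RHet, 7 on 3RHet, 2 on 3LHet and 1 on 2LHet. XHet and YHet had none, though each held 2 shared clusters scoring at least 1. The split at 1 was made after the values were seen and carries no test.

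On 3RHet, the 3 highest-scoring shared clusters were all alone and of like width. The first ran from 1704460 to 1706960 (2501 bp) with a score of 1.65, and its replicate clusters had widths of 2571 and 2414 bp and scores of 1.93 and 1.37. The next ran from 1822418 to 1824874 (score 1.62, replicates 1.91 and 1.36), and the last from 1897360 to 1900054 (score 1.61, replicates 1.82 and 1.44). The 3 lie within 196 kb of one another. The 2 widest shared clusters of 3RHet were of another kind. One spanned 7085 bp from 1456884 to 1463968 with a score of 0.66, and replicate 1 listed 3795 bp of it and replicate 2 listed a 6332 bp cluster. The other spanned 6979 bp from 624800 to 631778 with a score of 0.83, where replicate 2 had 1 cluster of 7157 bp and replicate 1 had 3 clusters with 4242 bp in all.

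On 3LHet, 2 of the 18 shared clusters stood alone and 8 had a score of at least 1. The top shared cluster by score ran from 2396898 to 2400244 (3347 bp, score 1.67, replicates 1.88 and 1.60). The next were those from 458692 to 461530 (2839 bp, score 1.66, replicates 1.84 and 1.52) and from 2242674 to 2245224 (2551 bp, score 1.58, replicates 1.85 and 1.31). Its widest, from 2005700 to 2011758, spanned 6059 bp with a score of 0.61, and replicate 1 listed 1398 bp there against 6545 bp in replicate 2. The next, from 599826 to 603916 (4091 bp, score 0.72), met clusters of 2268 and 2121 bp, which both ended in the first part of it.

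On 2RHet the leading shared clusters were those from 390114 to 392886 (2773 bp, score 1.79, replicates 1.93 and 1.70) and from 469868 to 472664 (2797 bp, score 1.79, replicates 2.05 and 1.55). They were followed by the one from 2901026 to 2904036 (3011 bp, score 1.27, replicates 1.43 and 1.20). All 3 stood alone. The widest, from 1965056 to 1969960, spanned 4905 bp with a score of 0.60, where replicate 1 listed 1477 bp and replicate 2 listed 4598 bp. The next was 3851 bp wide, from 1857488 to 1861338 (score 0.73), and met clusters of 2041 and 3347 bp.

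The small scaffolds carried a few compact regions that both replicates listed, with somewhat different extents. 2LHet held 3 shared clusters. One ran from 167224 to 170028 (2805 bp, score 1.57, replicates 1.68 and 1.48). The others were a pair, from 30630 to 33748 (3119 bp, score 1.47, replicates 1.82 and 1.03) and from 33868 to 36548 (2681 bp, score 1.11, replicates 1.20 and 1.06). This pair is separated by 119 bp in the combined list, and by 99 bp in replicate 1 and 231 bp in replicate 2. Replicate 1 listed nothing else on 2LHet.

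On XHet the 4 shared clusters were the whole of the replicate 1 list for this scaffold. They followed each other within 26.5 kb, starting with 59764 to 63150 (3387 bp, score 1.51, replicates 1.49 and 1.55). The second, from 67780 to 69550 (1771 bp), had the lowest score of all 60 shared clusters, 0.35. The third spanned 4477 bp from 74250 to 78726 (score 1.07, replicates 1.39 and 0.93), and the last ran from 84036 to 86236 (2201 bp, score 0.61, replicates 0.65 and 0.59). The 6 combined clusters in the rest of XHet beyond this run, from 143476 on, were met by replicate 2 only (3 clusters) or by neither (3 clusters).

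YHet held 11 combined clusters, and 9 of them lay in the final part of the scaffold from 264578 on. The highest, from 304442 to 306840 (2399 bp), scored 2.07 and had replicate scores of 2.00 and 2.26, which made it the highest-scoring of the 60 shared scaffold clusters. The other shared cluster ran from 327076 to 329306 (2231 bp, score 1.25, replicates 1.21 and 1.41). Both replicates placed the start of the first at 304446. These were the only YHet clusters in replicate 1, which left the first 304 kb of the scaffold, 87.7% of it, without a cluster.

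Replicate 2 alone met 5 YHet clusters. The first ran from 24192 to 25928 (score 1.10, replicate 2 score 1.25). A pair followed at 264578 to 265932 (1.05, replicate 2 score 1.75) and 267980 to 269956 (0.94, replicate 2 score 1.80). The last were 319856 to 321818 (0.68, replicate 2 score 0.88) and 341862 to 343770 (1.08, replicate 2 score 1.65). Neither replicate met the clusters at 12736 to 13994 (score 1.44), 300840 to 302214 (1.40), 312826 to 314524 (0.48) or 340074 to 341350 (1.22). Scores of unmet and shared clusters overlapped on YHet, and the shared clusters were the 2 widest of the 11.

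The few scaffold clusters with a score of at least 2 were mostly narrow and listed by no replicate. Of these 12 combined clusters, 8 were met by neither replicate, 3 by replicate 2 only and 1, on YHet, by both. The median width of the 8 was 1052 bp. With a score of at least 1, 34 of 75 were met by neither and 25 by both, and the share met by neither over all 487 was 47.8%. In the quartile of highest scores of the whole list, 43.8% of 89 scaffold clusters were met by neither, against 1.48% of arm clusters. The share at a score of at least 2 was not taken over the whole list. The highest score of the 487 was on 2RHet from 540634 to 541736 (1103 bp, score 3.55), and the next cluster met by neither on that scaffold was 1582156 to 1583262 (1107 bp, score 2.31). On 3LHet the 2 highest-scoring clusters met by neither were 1558052 to 1559052 (score 3.02) and 2107294 to 2108294 (score 2.55), each 1001 bp wide. On 3RHet they were 69386 to 70386 (1001 bp, score 2.55) and 1143056 to 1144266 (1211 bp, score 1.92). XHet had 191186 to 192186 (1001 bp, score 2.55) and 180282 to 181312 (1031 bp, score 0.59). On 2LHet the pair was 45184 to 46306 (1123 bp, score 1.61) and 254342 to 255546 (1205 bp, score 0.65).

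Some scores recurred. The score of 2.55 was shared, within a relative tolerance of 1e-09, by the 3 clusters named above on 3LHet, 3RHet and XHet and by 10 clusters in the whole combined list. All 8 clusters with a score of at least 2 that neither replicate met had a score found elsewhere in the list. Over the scaffolds, 163 of 487 clusters (33.5%, interval 29.4 to 37.8) had such a repeated score, against 17.9% of arm clusters. Their median width was 1259 bp, against 1868 bp for those with a score of their own. Among the 60 clusters met by both it was 3 (5.00%), and among the 233 met by neither it was 109 (46.8%), against 4.22% and 40.8% in the same classes on the arms. In clusters met by replicate 1 only it was 33.3% (interval 19.2 to 51.2), against 18.8%, and in those met by replicate 2 only it was 41 of 164, against 29.6%. The read counts behind the clusters were not analysed here.

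**Figure D3:**
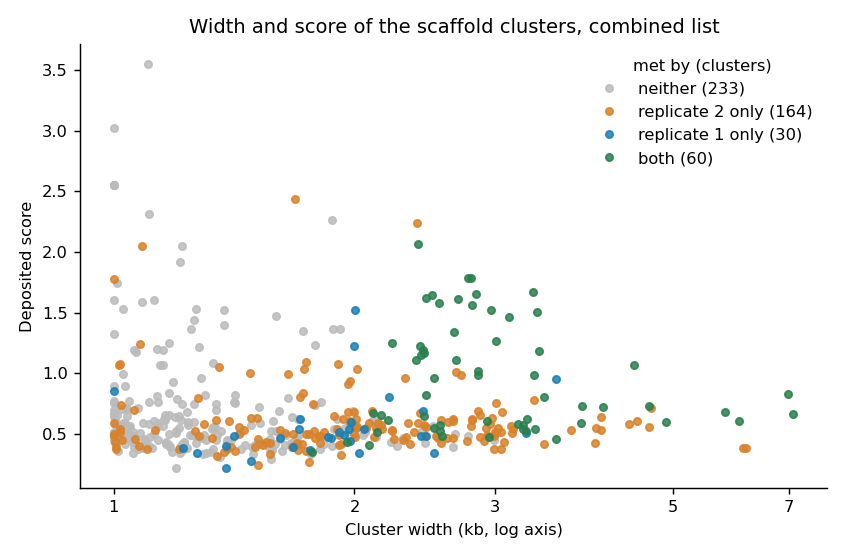
Deposited score (vertical axis) against width in kb (horizontal log axis) for the 487 scaffold clusters of the combined list, coloured by the replicate lists that met them. Clusters met by both lie between 1771 and 7085 bp, with those scoring above 1 between 2231 and 4477 bp, while the 8 unmet clusters scoring 2 or more have a median width of 1052 bp.

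Along the scaffolds the clusters were unevenly spaced, as they were on the arms. The gap from a cluster's end to the next start had a median of 7.05 kb in the combined list (quartiles 1.54 and 17.6 kb) but a mean of 16.4 kb, with the longest at 327 kb. Of 481 gaps, 92 (19.1%) were under 1 kb and 294 (61.1%) at most 10 kb, while 43 were 50 kb or longer. On the large arms the median gap was 2.69 kb, the mean 10.5 kb, and 78.0% were at most 10 kb. The mean was 2.32 times the median on the scaffolds and 3.90 times on the arms. Uneven spacing was thus not particular to the scaffolds. On chromosome 4 the median gap was 11.6 kb and 42.4% were at most 10 kb. The median gap was 4.65 kb on 3RHet, 5.66 kb on YHet, 6.88 kb on XHet, 7.23 kb on 3LHet, 10.1 kb on 2RHet and 14.4 kb on 2LHet. In the replicate lists scaffold gaps were longer, at a median of 45.1 kb in replicate 1 and 17.0 kb in replicate 2, against 4.88 and 3.80 kb on the arms.

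**Figure D4:**
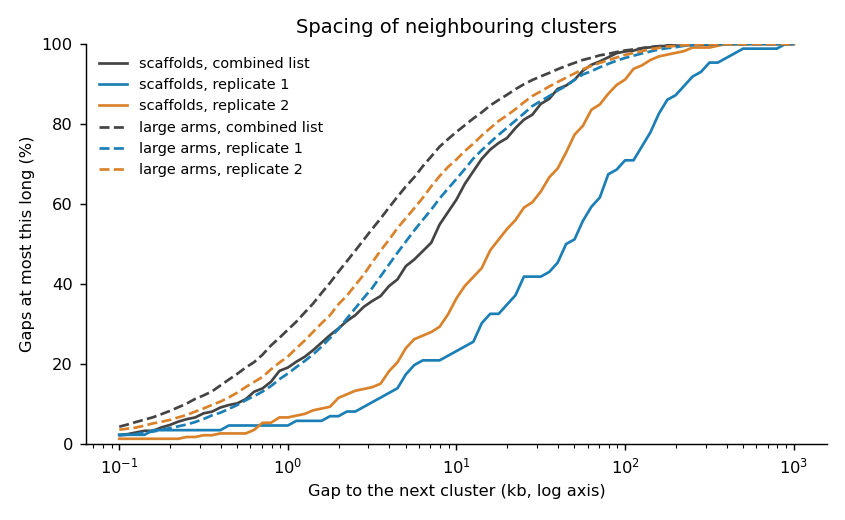
Percentage of gaps between neighbouring clusters (vertical axis) that are at most the length on the horizontal log axis (kb), with solid lines for the scaffolds and dashed lines for the large arms, coloured by list. The median is 7.05 kb (combined), 17.0 kb (replicate 2) and 45.1 kb (replicate 1) on the scaffolds, and 2.69, 3.80 and 4.88 kb on the arms.

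Joining neighbours at most 10 kb apart gave 193 groups: 91 single clusters, 82 groups of 2 to 5 and 20 groups of 6 or more. The 20 large groups held 167 clusters (34.3%) and lay on 3RHet (11), 3LHet (6) and 2RHet (3). On 3RHet they held 97 of its 197 clusters (49.2%), on 3LHet 43 of 135 (31.9%) and on 2RHet 27 of 124 (21.8%). At least 1 cluster met by both was found in 44 of the 193 groups, and 60 groups consisted of clusters met by neither. Clusters in large groups were met by both in 11 of 167 cases (6.59%), those in groups of 2 to 5 in 32 of 229 (14.0%) and single ones in 17 of 91 (18.7%). The shares met by neither were 44.9%, 49.3% and 49.5%, and median widths were 1701, 1651 and 1491 bp.

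The group with most clusters was on 2RHet from 2132372 to 2203788, where 14 clusters covered 37.4% of 71.4 kb. None of the 14 was met by both, 2 were met by replicate 1 only, 4 by replicate 2 only and 8 by neither. On 3RHet the largest held 13 clusters from 624800 to 705602 (80.8 kb, 32.5% covered), including the 6979 bp cluster described above, and 2 of the 13 were met by both. 3LHet reached 8 clusters from 917210 to 954982 (37.8 kb), the first of its groups of that size along the scaffold, with 1 met by both and 5 by neither. The largest group of XHet was the run of shared clusters, 5 clusters over 36.1 kb of which 4 were met by both. On YHet it was the 5 clusters from 300840 to 329306 with 2 met by both, and on 2LHet the 3 clusters from 30630 to 46306 with 2 met by both.

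Cut into 10 equal parts, the scaffolds differed in where clusters lay. On XHet part 4 was covered at 35.8% and 39.7% in the replicates and at 40.0% in the combined list, while 4 of its parts held no cluster's midpoint in the combined list. On 2LHet part 1 had 15.8%, 15.0% and 15.7%. In both places the 3 lists lay close together. On YHet the last part was covered at 5.77%, 17.3% and 26.2%, and 6 parts were empty in the combined list.

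On the long scaffolds the combined list had clusters in all 30 parts. On 3RHet part 3 was covered most, at 27.0% in the combined list with 4.70% in replicate 1 and 12.5% in replicate 2. That part held 5 clusters met by both, out of 31. The next 2 parts are picked out here for their shared clusters. In part 8 of 3RHet the 11 combined clusters included 5 met by both and none met by neither. Over all of 3RHet these shares were 10.2% and 44.2%. Coverage of part 8 was 9.38% (5.55% and 9.27% in the replicates). In part 3 of 3LHet 5 of 7 were met by both and 2 by neither, against 13.3% and 51.1% over all of 3LHet. Its coverage was 6.48% (4.60% and 4.53%). On 3LHet part 8 led (17.1%, with 4.41% and 7.48% in the replicates), and on 2RHet part 7 (16.2%, with 2.24% and 5.60%). The parts of these 2 scaffolds with least coverage in the combined list, part 10 of 3LHet and part 9 of 2RHet, had coverage near 2% in every list: 2.24%, 2.12% and 2.02% on 3LHet, and 1.98%, 1.68% and 1.57% on 2RHet (combined, replicate 1 and replicate 2). Both combined clusters in that part of 3LHet were met by both replicates, and of the 3 on 2RHet 2 were. Other parts were lower in a replicate list, such as part 4 of 2RHet at 0 in replicate 1 and 0.928% in replicate 2. Over all 60 parts, replicate 2 was above replicate 1 in 40 and below it in 5. Across the 30 parts of the long scaffolds the coverages of the replicates correlated at 0.34 (Pearson) and 0.35 (Spearman), a description over bins that share libraries.

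**Figure D5:**
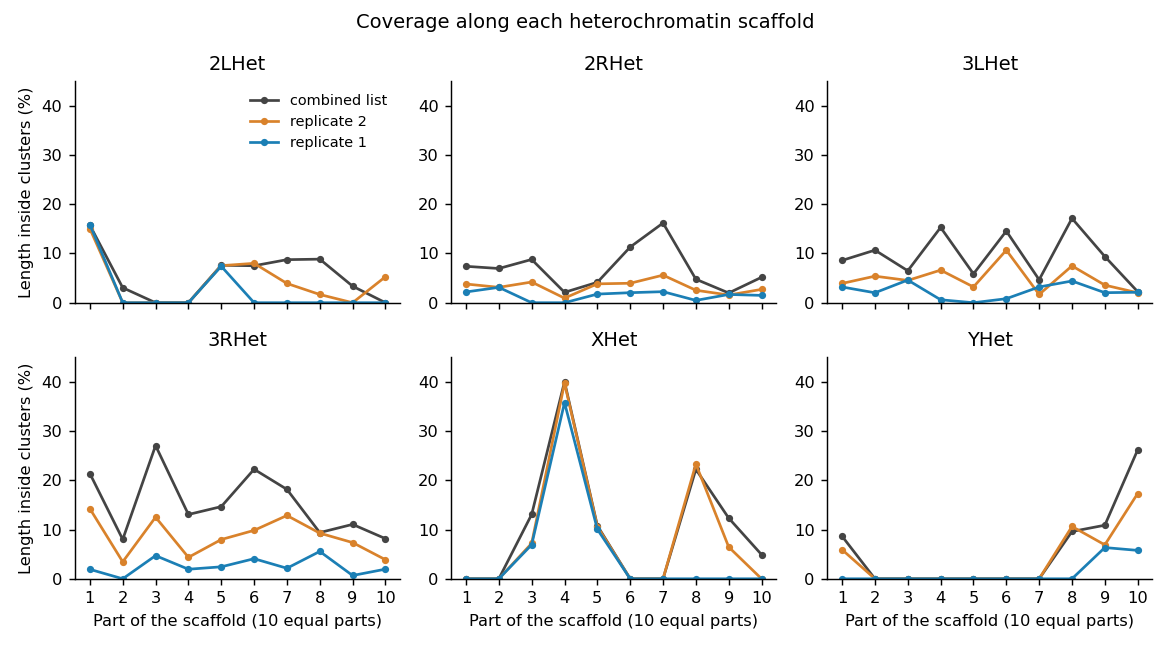
Percentage of length inside clusters (vertical axis) in each of 10 equal parts of the 6 scaffolds (horizontal axis), for the combined list and both replicates. The lists come close at part 1 of 2LHet (15.0% to 15.8%) and part 4 of XHet (35.8% to 40.0%), and lie apart on most of 3RHet.

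Long stretches without any cluster lay between the groups. In the combined list the longest was 327 kb on 2RHet, from 2448317 to 2774965. On YHet it was 239 kb from 25929 to 264577, 68.8% of the scaffold, and replicate 2 left nearly the same stretch free (238 kb). On 3LHet it was 152 kb from 2245225 to 2396897, bounded on either side by one of its 3 highest-scoring shared clusters. 3RHet had 123 kb from 2346635 to 2469873, 2LHet 121 kb from 46307 to 167223 and XHet 57.2 kb from 86237 to 143475. In replicate 1 the longest was 861 kb on 2RHet, from 472679 to 1333784. Whether these stretches hold assembly gaps or repeats was not checked, so the lists cannot say whether the mark was low there.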

How the data were processed

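H3K9acS10P ChIP-seq was described for 4 samples, 2 ChIP and 2 input. The submitters' processing notes name Bowtie 0.12.7, and the file headers name FlyBase release 5 as the build. The authors deposited lists of regions with a score each, 1 list per ChIP sample and 1 for the pair. The sources used here do not give the scale of this deposited score, the caller or its threshold. Regions typed as depleted (none on the scaffolds) were left out.

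Rows typed as enriched on the 6 scaffolds were taken. Clusters were met at an overlap of 1 bp or more, with the same counts from bedtools 2.31.1. Coverage is the percentage of the full sequence length inside clusters. Groups join neighbours at most 10 kb apart. Shares carry 95% Wilson intervals. No test was made, and no library depth is known. The functions were tested on simulated data. Named regions were, on each scaffold, the 3 highest-scoring and 2 widest clusters met by both, the 2 highest-scoring met by neither, the largest group and the longest free stretch. Added to these were the 2 highest-scoring clusters of each replicate that the other did not meet and all of YHet. The clusters and rules were chosen with earlier results of these data known. Splits by width, score, repeated score and position were added after the lists were read. Python 3.11.15, numpy 2.4.6, pandas 2.3.3, scipy 1.17.1 and matplotlib 3.10.9 were used.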

Additional observations from a re-analysis of the deposited data

How the results depend on the processing

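The share of scaffold clusters met by both replicates was 12.3%. It was 9.24% at a reciprocal overlap of 50% and 9.45% where 50% of the combined cluster had to be covered. It was 15.7% in the 50% of the list with higher scores and 18.8% in clusters of 1301 bp or more. With only replicate 1 required, 18.5% of the 487 combined clusters were met, and with only replicate 2 required 46.0% were. The replicate lists themselves (replicate 1, then replicate 2) gave coverage of 2.11% and 5.33% and median widths of 2045 and 1932 bp. They gave 72 and 149 groups and median gaps of 45.1 and 17.0 kb. Their median scores, 0.80 and 0.78, belong to other lists, so they cannot be set against the combined median. Clusters met by both alone gave 2.03% coverage, 46 groups, and medians of 2822 bp (width), 0.81 (score) and 74.7 kb (gap). The higher-scoring 50% had medians of 1725 bp (width) and 0.60 (score), and clusters of 1301 bp or more a median width of 2001 bp. The last values follow from how these settings choose clusters. Joining up to 20 kb gave 119 groups and up to 5 kb 273. Of 33 alternative values, 23 moved by more than the replicate SD, the interval or 1.5 times, the scores of the replicate lists among them. The 72 groups of replicate 1 came from 92 clusters, against 193 groups from 487 clusters in the combined list. The group count also moved for clusters met by both and for joining up to 20 kb. The cause of these differences was not tested. Without read depth, a region in 1 list may lie just under the threshold of the other.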
